A study of Mus musculus with 3 samples.

Results

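The Wnt ligands, receptors and modulators of N1E-115 cells were described from poly(A) RNA sequenced in 3 libraries. N1E-115 is a mouse neuroblastoma line, from a tumour type that arises in developing sympathetic neurons and their precursors. All 3 libraries were labelled as neuroblasts of wild-type genotype, without treatment, at day 0, so there is a single group and no comparison between conditions. The cells are 1 tumour line, and nothing in the labels says whether the libraries came from separate cultures, so the spread between them may be technical. The genes were chosen by name patterns, with earlier results of these data known: the Wnt, Fzd, Dkk, Sfrp, Rspo, Axin and Dvl families, Lrp5 and Lrp6, Tcf7, Tcf7l1, Tcf7l2 and Lef1, Ctnnb1, Apc, Porcn, Wls, Rnf43, Znrf3 and Lgr4 to Lgr6. This gave 61 of the 24384 named genes of the deposited table.

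Wnt proteins are secreted lipid-modified ligands. They bind Frizzled receptors together with the co-receptors Lrp5 and Lrp6, and the signal passes through Dishevelled to a destruction complex built on Axin and Apc, which otherwise marks beta-catenin (Ctnnb1) for degradation. Stabilised beta-catenin acts in the nucleus with TCF and LEF factors, whereas other Wnt signals act on cell polarity and movement without it. In the embryo Wnt signals help to induce the neural crest, from which the sympathetic lineage arises.

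The libraries held between 13942014 and 17731376 estimated counts in named genes. Levels are in CPM, the usual counts-per-library unit in which every library is scaled to the same total. They are printed per library, or as mean ± SD with n = 3. Levels of different genes were ordered after division by exon length (CPM per kb). A gene with at least 1 CPM in every library is called detected. A count of 0 allows up to 3 counts, or between 0.169 and 0.215 CPM per library, for counting error only. The labelled cell type was checked by markers: all 12 sympathoadrenal and neuronal markers were detected, with a summed level of 5078 to 5548 CPM. Markers of glia (3 of 8 detected, 10.4 to 16.02 CPM in sum), fibroblasts (3 of 8, 10.4 to 12.9 CPM), blood (1 of 7, 1.56 to 4.16 CPM) and endothelium and epithelium (1 of 7, 4.67 to 8.32 CPM) were low. Col3a1, Ptprc and Epcam had no counts, and Sox10 had 2 over the 3 libraries. The highest marker of each of these lists was Erbb3 (5.80 ± 2.95 CPM) for glia and Pdgfra (4.24 ± 1.15) for fibroblasts. For blood it was Hba-a1 (2.45 ± 1.15), and for endothelium and epithelium Pecam1 (6.69 ± 1.88). Some detected genes of the set, such as Wnt1 (1.29 CPM), were lower than these markers. The part of these cell types in the low levels of the set was not tested.

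Of the 61 genes, 35 (57.4%) were detected, beside 47.3% of all named genes. No counts were found for 13 (21.3%), beside 36.7% of all named genes, and the other 13 had counts below the minimum. At least 10 CPM in every library was reached by 22 (36.1%), beside 37.2% of all genes. The genes just inside the minimum were Wnt10a, Wnt1 and Porcn, whose lowest libraries were at 1.10, 1.22 and 1.49 CPM. Just outside were Wnt9a, at 0.677 CPM in its lowest library, and Wnt2b and Wnt10b, both at 0.620 CPM. Detection was uneven along the pathway. All genes of the Dishevelled, Axin and Apc, beta-catenin, TCF and LEF and Lrp classes were detected, against 8 of 19 ligands, 7 of 10 Frizzled receptors, 2 of 8 Dkk and Sfrp antagonists and none of the 4 R-spondins.

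**Figure D1:**
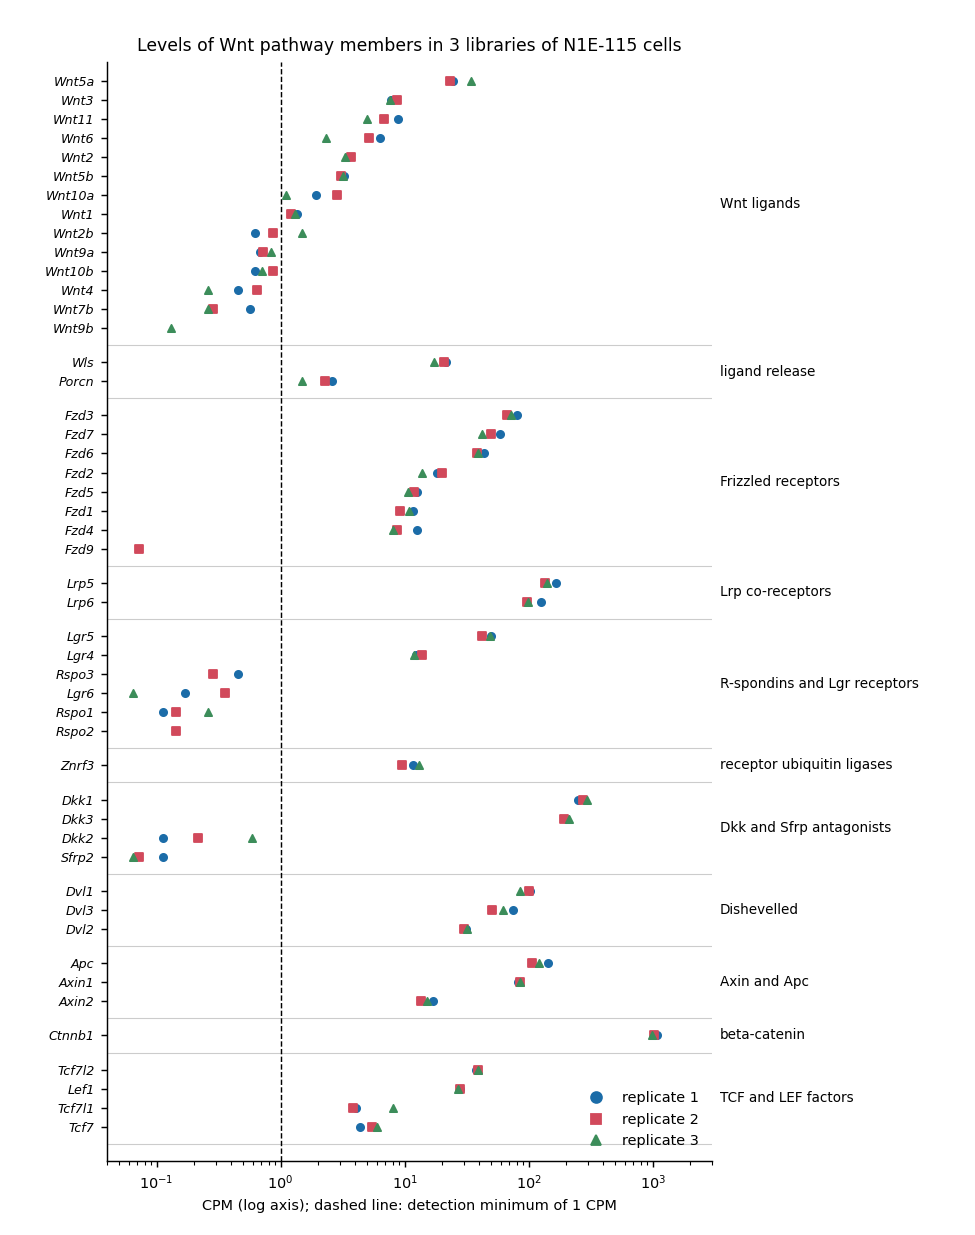
CPM (log axis) of the 48 genes with counts, by role, 1 point per library; libraries at 0 are not drawn, and the dashed line marks 1 CPM. The points of Ctnnb1 lie between 994 and 1093 CPM, and the ligands lie on both sides of the minimum, up to 34.3 CPM for Wnt5a in replicate 3.

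Among the ligands, Wnt5a was the highest. Wnt5a, best known for signalling without beta-catenin (chromosome 14, 28504750 to 28527448 in mm10), had 24.6, 23.4 and 34.3 CPM in replicates 1, 2 and 3 (27.4 ± 6.01). Replicate 3 stood above the other libraries. Wnt3, a ligand of the beta-catenin pathway, had 7.84, 8.75 and 7.58 CPM, with the 3 libraries close together (8.06 ± 0.614). Wnt6 had 6.32, 5.16 and 2.33 CPM (4.60 ± 2.05), and here replicate 3 was the lowest. In bulk RNA, fewer cells with a transcript and less transcript per cell cannot be told apart. Wnt11 (6.91 ± 1.93 CPM), which like Wnt5a is known from cell movement in development, and Wnt2 (3.51 ± 0.213), Wnt5b (3.18 ± 0.0934), Wnt10a (1.96 ± 0.885) and Wnt1 (1.29 ± 0.0673) completed the 8 detected ligands. Below the minimum, Wnt2b, Wnt9a, Wnt10b, Wnt4, Wnt7b and Wnt9b held between 46 counts (Wnt2b) and 2 counts (Wnt9b) over the 3 libraries. Wnt3a, Wnt7a, Wnt8a, Wnt8b and Wnt16 had no counts.

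Per length of exon, the detected ligands formed a shallow series. Wnt5a took 20.2, 19.6 and 32.0% of the summed CPM per kb of all Wnt genes (23.9 ± 6.97%), Wnt3 took 17.7 ± 1.20%, Wnt6 13.9 ± 5.53% and Wnt11 11.1 ± 2.48%. Neighbours in this order were called separated where the higher gene was higher in 3 of 3 libraries and the mean log2 difference was at least 2 SD. Of the 7 neighbouring pairs only Wnt2 over Wnt5b met this (log2 difference of CPM per kb 0.35 ± 0.11), and it did not when lengths were taken from the longest transcript (0.20) or without length scaling (0.14). Without length scaling Wnt5a over Wnt3 (1.74) and Wnt11 over Wnt2 (0.92) were separated. Per length, none of the neighbouring pairs from Wnt5a down to Wnt2 was separated.

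Genes for the release of Wnt proteins were present. Wls, the carrier that brings Wnt proteins to the cell surface, had 21.6, 20.7 and 17.2 CPM (19.8 ± 2.35). Porcn, the enzyme that attaches the lipid, was low at 2.59, 2.30 and 1.49 CPM (2.13 ± 0.571). Replicate 3 was the lowest library for both.

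Of the 10 Frizzled receptors, 7 were detected, and no single receptor held most of the family's level. Fzd7 (chromosome 1, 59482424 to 59486955) had 58.8, 49.99 and 42.2 CPM (50.3 ± 8.30), Fzd6 had 43.7, 38.2 and 38.9 CPM (40.2 ± 3.02), and Fzd3, a receptor needed for axon growth and guidance in the mouse, had 80.5, 66.8 and 72.2 CPM (73.2 ± 6.93). Replicate 1 was the highest library for each of them. Fzd3 has the longest exon sequence of them (12804 nt against 4532 nt for Fzd7), so that per length the order became Fzd7 (11.1 ± 1.83 CPM per kb), Fzd6 (8.35 ± 0.626) and Fzd3 (5.71 ± 0.541). These took 31.1 ± 1.86%, 23.5 ± 1.37% and 16.1 ± 1.33% of the summed receptor level. Fzd7 and Fzd6 were separated (log2 difference 0.40 ± 0.17), as were Fzd6 and Fzd3 (0.54 ± 0.05), but without length scaling Fzd3 was higher than Fzd6 (log2 difference -0.86). The separation of Fzd7 from Fzd6 was lost without replicate 1 (0.34), without replicate 2 (0.36), with the longest transcript as the length (0.24) and without length scaling (0.31). Fzd2 (4.76 ± 0.883 CPM per kb) was not separated from Fzd3, nor Fzd4 (1.45 ± 0.368) from Fzd5 (1.69 ± 0.155), and Fzd1 (2.52 ± 0.298) lay between these pairs. Fzd1 was separated from Fzd2 above it and Fzd5 below it (log2 differences 0.88 ± 0.38 and 0.54 ± 0.20), but from neither without replicate 1 (0.91 and 0.53) or without length scaling (0.71 and -0.15). Fzd9 had 1 count in all, and Fzd8 and Fzd10 had none. The summed CPM per kb of the Frizzled family was 2.55, 2.29 and 2.34 times that of the Wnt family in replicates 1, 2 and 3.

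**Figure D2:**
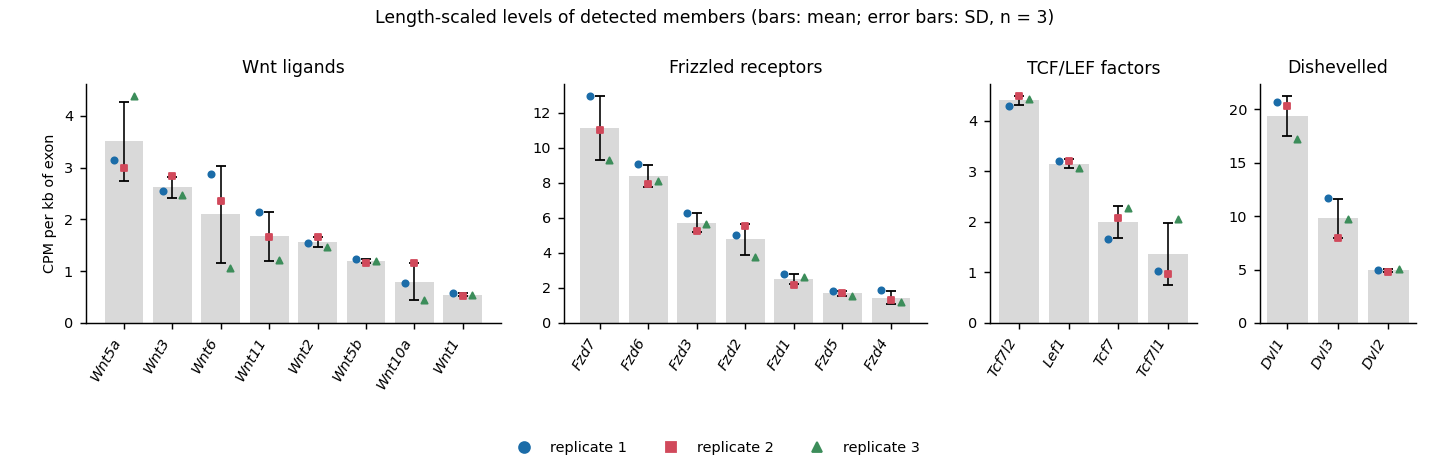
CPM per kb of exon for the detected members of 4 families; bars are means, error bars SD (n = 3), and points single libraries. Among the ligands most neighbours have overlapping points, except Wnt5a and Wnt3 and Wnt2 and Wnt5b, Fzd7 leads the receptors at 11.1 CPM per kb, and Dvl1 stands well above Dvl3 and Dvl2.

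Among all genes with a known exon length, detected or not, Lrp5 was at the 85.1 percentile in CPM per kb and Lrp6 at the 76.0 percentile. This ranking includes genes without counts, so both would rank lower among detected genes alone. Lrp5 had 167, 136 and 141 CPM (148 ± 16.3), and Lrp6 had 126, 97.6 and 99.5 CPM (108 ± 15.7). Replicate 1 was the highest library for both. Lrp5 exceeded Lrp6 per length by 0.94 ± 0.05 in log2, in 3 of 3 libraries, and took 65.9 ± 0.779% of their summed level. With the longest transcript as the length, its share was 59.2%.

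R-spondins amplify Wnt signals by binding Lgr4, Lgr5 or Lgr6 and removing the ubiquitin ligases Rnf43 and Znrf3, which clear Frizzled receptors from the cell surface. Receptors of this branch were detected and its ligands were not. Lgr5, better known as a marker of intestinal stem cells (chromosome 10, 115450311 to 115587780), had 49.9, 42.2 and 48.7 CPM (47.0 ± 4.13), and Lgr4 had 12.4, 13.7 and 11.9 CPM (12.7 ± 0.927). Lgr5 was the higher per length in 3 of 3 libraries (log2 difference 1.05 ± 0.22) and took 67.6 ± 3.72% of the Lgr level. Lgr6 had 3, 5 and 1 counts. The 4 R-spondins together held 10, 8 and 4 counts: Rspo1 2, 2 and 4, Rspo2 0, 2 and 0, Rspo3 8, 4 and 0, and Rspo4 none. Of the ligases, Znrf3 had 11.6, 9.54 and 13.0 CPM (11.4 ± 1.75), whereas Rnf43 had no counts in any library.

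Of the 8 secreted antagonists, 2 were abundant and 6 had few counts or none. Dkk1, which blocks Lrp5 and Lrp6 (chromosome 19, 30545863 to 30549665), had 252, 274 and 298 CPM (275 ± 22.9), and was at the 98.3 percentile of all genes with a known exon length in CPM per kb. Dkk3, a divergent relative not established as an Lrp inhibitor, had 202, 192 and 210 CPM (201 ± 8.84). Dkk1 exceeded Dkk3 per length by 0.91 ± 0.11 in log2, in 3 of 3 libraries. Dkk2 had 2, 3 and 9 counts and Dkk4 none. Sfrp proteins bind Wnt ligands directly; Sfrp2 had 2, 1 and 1 counts, and Sfrp1, Sfrp4 and Sfrp5 had none. The summed CPM per kb of the Dkk family was 10.5, 11.2 and 13.5 times that of all Wnt genes (11.7 ± 1.56). Dkk3 made up 34.6 ± 1.72% of the Dkk sum, so this is not a ratio of Lrp inhibitors to ligands. Kremen1, a membrane protein that binds Dkk1, was at 133 ± 26.9 CPM, while Kremen2 was below the minimum (0.798 CPM).

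Inside the cell, all genes of the Dishevelled, Axin and Apc, beta-catenin, and TCF and LEF classes were detected. The 3 Dishevelled genes pass the signal from Frizzled: Dvl1 had 103, 101 and 85.9 CPM (96.8 ± 9.51), Dvl3 had 74.8, 51.1 and 62.1 CPM (62.7 ± 11.8), and Dvl2 had 31.4, 30.0 and 31.9 CPM (31.1 ± 0.981). Per length they were separated in this order, with Dvl1 taking 56.9 ± 4.02% of the summed level, although Dvl1 and Dvl3 were not separated with the longest transcript as the length (log2 difference 0.38, share of Dvl1 48.2%). Dvl2 shares 1151 nt of exon (18.3% of its length) with Acadvl on the opposite strand, a gene at 64.8 ± 4.79 CPM. The library kit keeps strand information, but no source used here says whether counting did, so reads of Dvl2 and Acadvl may not have been told apart. In all, 13 of the 61 genes share exon sequence with an annotated gene on the opposite strand, among them Fzd5 (17.8% of its length) and Sfrp2 (16.1%).

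Axin1, a scaffold of the destruction complex, had 82.4, 84.8 and 85.6 CPM (84.3 ± 1.66), with a coefficient of variation (SD over mean) of 1.98%, the lowest among the 35 detected genes. Axin2, a feedback gene switched on by beta-catenin in many tissues, had 16.8, 13.5 and 15.0 CPM (15.1 ± 1.66). Axin1 was the higher per length by 2.96 ± 0.17 in log2, in 3 of 3 libraries. Apc, the other scaffold, had 144, 107 and 121 CPM (124 ± 18.9), with replicate 1 the highest. Ctnnb1 itself (chromosome 9, 120929216 to 120960507) had 1093, 1021 and 994 CPM (1036 ± 51.1), with replicate 1 the highest. Beta-catenin also has a role in cell adhesion with cadherins, and its RNA level gives no measure of the protein or of where it lies in the cell. Ulk4, at 2.74 ± 0.776 CPM, overlaps 759 nt of Ctnnb1 exon (14.6% of its length) on the opposite strand. The part of this overlap in the counts of either gene was not tested.

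All 4 TCF and LEF factors were detected. Tcf7l2 had 37.7, 39.4 and 38.9 CPM (38.7 ± 0.845), and Lef1 had 28.2, 28.1 and 26.9 CPM (27.7 ± 0.732). After Axin1 they had the lowest coefficients of variation of the set (2.19% and 2.64%). Tcf7 had 4.34, 5.45 and 5.96 CPM (5.25 ± 0.828), while Tcf7l1, mostly a repressor, had 4.06, 3.80 and 8.10 CPM (5.32 ± 2.41), with replicate 3 at the top. Per length the order was Tcf7l2, Lef1, Tcf7 and Tcf7l1, and only the last pair was not separated (log2 difference 0.60 ± 0.45). Without replicate 2 the separation of Lef1 from Tcf7 was lost as well (0.66). Tcf7l2 took 40.5 ± 2.62% of the summed level, and 47.6% with the longest transcript as the length.

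The other genes of the pathway were described from 5 lists, which were chosen with earlier results of these data known. All 14 genes of the destruction complex and its kinases were detected (median 117 CPM). Per length the highest were Fbxw11 (49.8 ± 3.93 CPM per kb), whose product marks phosphorylated beta-catenin for degradation, the casein kinase gene Csnk1d (44.0 ± 4.04) and the kinase gene Gsk3a (38.3 ± 3.56). Gsk3b, a close relative of Gsk3a that also phosphorylates beta-catenin, was at 21.0 ± 2.48 CPM per kb (207 ± 24.3 CPM). All 14 nuclear partners were detected as well (median 35.1 CPM), and per length the highest were the corepressor gene Ctbp1 (74.3 ± 1.80 CPM per kb), Cby1 (19.0 ± 1.96), whose product binds and inhibits beta-catenin, and the corepressor gene Tle3 (17.5 ± 1.22). Of 19 genes of planar cell polarity and alternative Wnt receptors, 15 were detected (median 29.5 CPM). Per length the highest were the polarity gene Scrib (35.0 ± 3.28 CPM per kb), the Wnt receptor gene Ryk (21.7 ± 1.06) and Dact3 (20.3 ± 0.632), whose product binds Dishevelled. Ror1 and Ror2, receptors of Wnt5a, and Musk had no counts. Of 15 extracellular modulators outside the naming rule, 6 were detected (median 0.209 CPM), and per length the highest were Kremen1 (17.2 ± 3.49 CPM per kb), the glypican gene Gpc6 (2.64 ± 0.622) and Tpbg (2.36 ± 0.510). Ndp, Sostdc1, Cer1, Trabd2b, Gpc3 and Gpc4 had no counts. The background of detection over all named genes is 47.3%, with a median of 0.595 CPM.

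Commonly used beta-catenin target genes were split. Of 22 listed, 14 were detected (median of the list 3.16 CPM), and 7 of the 22 also belong to the 61 genes described here. Per length the highest were Ccnd1 (157 ± 5.14 CPM per kb), Dkk1 (113 ± 9.43) and Myc (58.3 ± 0.615). Ccnd1 and Myc respond to many other signals. The feedback genes Lgr5, Lef1, Axin2, Znrf3 and Tcf7 lay between 1.44 (Znrf3) and 4.58 (Lgr5) CPM per kb, or between 5.25 and 47.0 CPM. Notum, which removes the lipid from Wnt proteins, was at 0.752 ± 0.142 CPM per kb (1.81 ± 0.343 CPM). Rnf43, Nkd1, Sp5 and Bmp4 had no counts. With no condition in which Wnt signalling was changed, these levels do not measure the activity of the pathway.

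**Figure D3:**
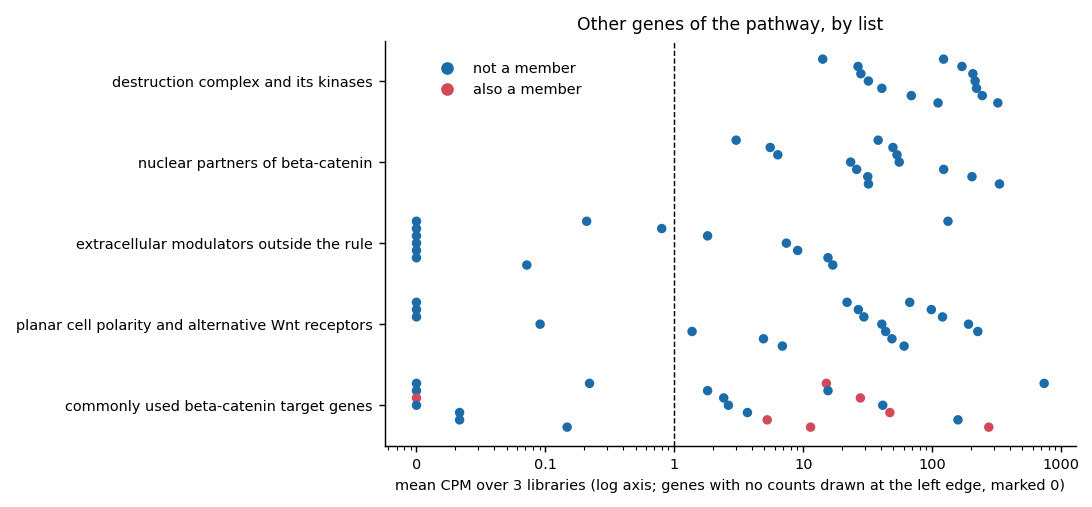
Mean CPM (log axis) of the genes of the 5 other pathway lists, 1 point per gene, with genes without counts drawn at 0 and genes that are also among the 61 in red; the dashed line marks 1 CPM. The 14 destruction complex genes and the 14 nuclear partners all lie right of the line, while the extracellular modulators and the target genes are spread from 0 to over 100 CPM.

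Promoter windows from RefSeq (GRCm38.p6, the assembly of mm10; from 250 bases before to 50 after the start site, the most upstream window of a gene) were found for 40 of the 61 genes. They were searched on both strands for the letters CTTTG followed by AA, AT, TA or TT, a core recognised by TCF and LEF factors. A match was present in 4 of the 40 windows (10%), beside 16.9% of 27025 promoters of all genes and 15.0% of 17224 promoters of genes of the table. The 4 windows were among the 22 of detected genes (18.2%), with 0 among the 18 of the others. Dkk1 had 2 matches, 117 and 98 bases before the start site, and Fzd7, Wnt11 and Wnt3 had 1 each. The median content of G and C was 70.3% in the 40 windows and 52.7% in all promoters, and the shares were not adjusted for it. The 5 windows of genes that are also on the list of beta-catenin targets are shown, because these genes run from the abundant Dkk1 to Rnf43 without counts. Lgr5 and Znrf3, the other genes of the set on that list, had no window and were not searched. Capitals mark the matches. The windows are chr19:30549447-30549746 on the minus strand for Dkk1, chr3:131110047-131110346 on the plus strand for Lef1, chr11:108920099-108920398 on the plus strand for Axin2, chr11:52282965-52283264 on the minus strand for Tcf7 and chr11:87662837-87663136 on the plus strand for Rnf43.
Dkk1: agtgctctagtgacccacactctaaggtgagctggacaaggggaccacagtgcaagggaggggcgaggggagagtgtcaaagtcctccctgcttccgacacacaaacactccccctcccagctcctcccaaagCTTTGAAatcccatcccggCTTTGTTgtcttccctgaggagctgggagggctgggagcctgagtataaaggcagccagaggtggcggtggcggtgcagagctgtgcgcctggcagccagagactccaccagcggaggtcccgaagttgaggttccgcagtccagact
Lef1: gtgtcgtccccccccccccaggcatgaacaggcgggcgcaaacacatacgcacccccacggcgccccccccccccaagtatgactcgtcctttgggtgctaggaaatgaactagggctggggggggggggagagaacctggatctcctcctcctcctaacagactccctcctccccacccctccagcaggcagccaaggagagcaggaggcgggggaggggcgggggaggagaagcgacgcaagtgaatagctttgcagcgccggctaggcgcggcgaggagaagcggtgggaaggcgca
Axin2: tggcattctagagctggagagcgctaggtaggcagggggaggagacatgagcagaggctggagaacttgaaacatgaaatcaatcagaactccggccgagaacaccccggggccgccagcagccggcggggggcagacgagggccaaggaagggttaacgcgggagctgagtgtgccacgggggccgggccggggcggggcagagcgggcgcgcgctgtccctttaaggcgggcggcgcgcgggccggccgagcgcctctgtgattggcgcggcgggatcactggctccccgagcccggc
Tcf7: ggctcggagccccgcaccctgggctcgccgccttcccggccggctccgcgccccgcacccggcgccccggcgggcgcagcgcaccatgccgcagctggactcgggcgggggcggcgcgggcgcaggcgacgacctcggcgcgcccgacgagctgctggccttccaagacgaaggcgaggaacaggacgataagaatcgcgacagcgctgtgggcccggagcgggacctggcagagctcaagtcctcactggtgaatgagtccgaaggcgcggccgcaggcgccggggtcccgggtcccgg
Rnf43: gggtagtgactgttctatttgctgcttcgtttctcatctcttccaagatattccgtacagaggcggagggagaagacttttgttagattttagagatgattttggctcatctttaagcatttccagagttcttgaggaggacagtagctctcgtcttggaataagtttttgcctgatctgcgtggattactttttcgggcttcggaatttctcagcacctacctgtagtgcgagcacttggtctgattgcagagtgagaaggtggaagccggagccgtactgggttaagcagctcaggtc
Only the Dkk1 window of these 5 holds the letters searched. A match is a description of the letters and not a binding site, and its absence says only that the letters are not in the window. The windows also differed in base composition: the Tcf7 window has 76.3% G and C and 45 CpG dinucleotides, the Axin2 window 70% and 31, and the Rnf43 window 46.7% and 10. In the Tcf7 window an ATG before the start site opens a reading frame that runs to the window's end without a stop codon. Much of this window may therefore be coding sequence, so its composition and lack of a match may not be those of a promoter. Over all matched genes, the median was 30.5 CpG in the 22 windows of detected genes and 29 in the 18 windows of genes not detected, beside 13 in the promoters of 17224 genes of the table.

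The median coefficient of variation of the 35 detected genes was 11.002%, beside 9.80% for all detected genes, and it ranged from 1.98% for Axin1 to 45.3% for Tcf7l1. These medians were not matched for level: the median level was 19.8 ± 2.35 CPM for the 35 genes and 37.4 ± 0.865 CPM for all detected genes. Of the 36 genes of the set with enough counts to be tested (the detected genes and Wnt9a), 0 passed a test for spread between libraries beyond that of genes at the same count (negative binomial deviance in edgeR, Benjamini-Hochberg adjusted p under 0.05), beside 0.626% of 11821 genes. At an unadjusted p under 0.05 there were 3 of 36, beside 5.99% of all genes tested: Wnt6 (edgeR unadjusted p = 0.0134, adjusted p = 0.510), Tcf7l1 (0.0175 and 0.562) and Wnt5a (0.0311 and 0.723). With the dispersion trend of DESeq2 0 of 36 passed after adjustment, beside 47 of 11821 genes. At an unadjusted p under 0.05 that trend gave 2 of 36, beside 475 of 11821. With 1 common dispersion for all genes Wnt6 (edgeR adjusted p = 0.0375) and Tcf7l1 (0.0414) passed, 2 of 36 beside 116 of 11821 genes. Leaving out 1 library gave 0 of the set, and 34, 37 and 44 of all genes tested without replicates 1, 2 and 3, against 74 with all libraries.

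**Figure D4:**
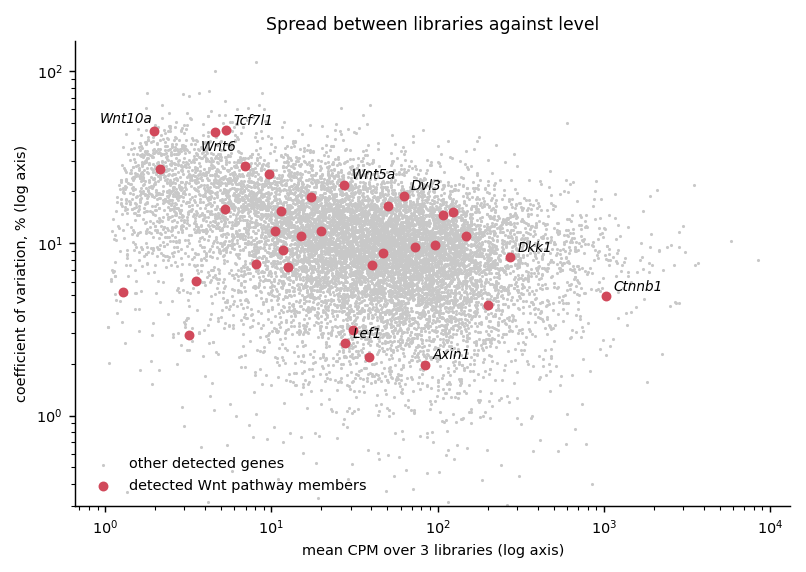
Coefficient of variation over the 3 libraries against mean CPM (both log axes) for the detected genes, with the 35 detected Wnt pathway genes in red. Wnt6, Wnt10a and Tcf7l1 lie near 45% at low levels, and Axin1, Tcf7l2, Lef1 and Wnt5b under 3%.

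Single libraries stood apart for a few genes. Ratios were taken relative to the mean of the others, in CPM scaled by TMM factors. In replicate 3, Wnt6 had a log2 ratio of -1.26, Wnt10a of -1.09, Porcn of -0.68, Wnt11 of -0.62, Tcf7l1 of 1.08 and Wnt5a of 0.55. Ratios of this size were also found in replicate 1 (Wnt6 0.73, Tcf7l1 -0.58, Fzd4 0.57 and Wnt11 0.55) and in replicate 2 (Wnt10a 0.92 and Tcf7l1 -0.69). The median log2 ratio of the 35 detected genes was 0.09 in replicate 1, -0.04 in replicate 2 and -0.03 in replicate 3, beside -0.00, 0.00 and 0.00 for all detected genes. Replicate 1 was above the others for 23 of 35 and below for the remaining 34.3%, beside 50.3% of all detected genes below. Replicate 2 was below the others for 21 of 35 (60%), beside 49.1% of all detected genes. Over all detected genes the log2 ratio changed with exon length, by 0.09 per doubling in replicate 1, -0.12 in replicate 2 and 0.02 in replicate 3. The long gene Apc (16116 nt) was at 0.31 in replicate 1 and -0.32 in replicate 2, and at 0.14 and -0.11 after a linear trend on log2 exon length was removed. For the short gene Wnt6 (2192 nt) the ratio in replicate 3 was -1.24 after removal. The medians of the 35 genes after removal were 0.07, -0.03 and -0.05 in replicates 1, 2 and 3, beside 0.00, -0.01 and 0.00 for all detected genes. Below the others were then 12, 23 and 20 of the 35. The part of exon length in these differences beyond a linear trend was not tested.

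**Figure D5:**
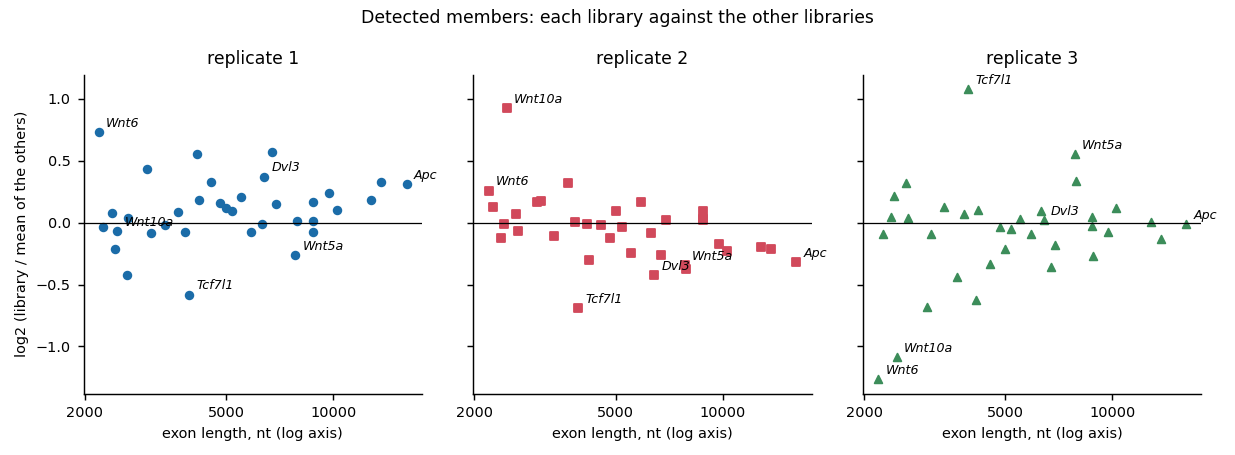
Log2 ratio of each library to the mean of the other libraries against exon length (log axis) for the 35 detected genes, 1 panel per library. In replicate 2 Apc, the longest gene, lies below 0, and in replicate 3 Wnt6 and Wnt10a lie at the bottom, below -1, and Tcf7l1 at the top.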

How the data were processed

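ISOGEN was used to extract RNA, from which poly(A) RNA was taken for directional libraries, per the labels' protocols. The submitters' processing notes name STAR and mm10, and the counting tool, its annotation and strandedness were not given in any source. The deposited table holds the authors' estimated counts per gene symbol, unscaled for depth or length, in 24411 rows. Counts were rounded to whole numbers. The 27 rows carrying calendar dates instead of symbols (0.281 to 0.306% of counts) were left out. None of the 61 genes had fractional counts beyond a tolerance of 0.01.

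CPM used the totals of named genes. Union exon lengths came from GENCODE for mm10 (23350 genes, 95.8%). Differences used log2(CPM per kb + 0.1). Variation was tested with edgeR 4.0.16 (R 4.3.3): intercept-only fit, TMM, filterByExpr, trended dispersion, deviance against a chi-square with 2 degrees of freedom. The script was tested on simulated data. DESeq2 1.42.0 gave alternative size factors and dispersions. With 3 libraries a two-sided exact sign-flip p cannot go under 0.25, so orders carry no p. The 3 highest genes per role, genes near the minimum and the 3 highest per length and silent genes of each list are named. Values of other detected genes of the set, and of Gsk3b, Kremen2, Notum and the feedback genes, were added after they were seen. The naming rule and the lists were chosen with earlier results of these data known. Python 3.11.15 and pandas 2.3.3 were used.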

Additional observations from a re-analysis of the deposited data

How the results depend on the processing

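The number of detected genes was 35 with TMM or DESeq2 scaling and without each replicate, 38 at a minimum of 0.5 CPM, 32 at 2 CPM and 31 at 1 CPM per kb. With 1 common dispersion 2 genes of the set varied between libraries in place of 0, and over all genes 116 in place of 74; the DESeq2 dispersion trend gave 47 over all genes, and leaving out 1 replicate 34 to 44. The cause was not tested. With the longest transcript in place of the union of exons, the share was 79.4% for Lgr5 in the Lgr family, 59.2% for Lrp5, 48.2% for Dvl1, 86.3% for Axin1 and 47.6% for Tcf7l2, which follows from the lengths used. Of the 13 separated neighbouring pairs, 10 remained separated with the longest transcript, 8 without length scaling, where 2 changed direction (Fzd6 over Fzd3 -0.86, Fzd1 over Fzd5 -0.15), 13 with a pseudocount of 1, and 10 to 13 without 1 replicate. The level of each of the 61 genes moved by no more than 1 SD with TMM or DESeq2 scaling. Leaving out 1 of 3 libraries cannot move a mean by 1 SD, so it is no check of the levels. Of the 2 genes of ligand release, Porcn fell below a minimum of 2 CPM or of 1 CPM per kb. No paired analysis was possible because there is 1 group. Depth limits the genes near 1 CPM, and Wnt10a, Wnt1 and Porcn rest on 17 to 46 counts per library.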

Other observations

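Several Wnt genes lie beside each other in the mouse genome, and the levels of such pairs are given here in CPM, not scaled by length and not tested. On chromosome 11, Wnt3 (103774150 to 103817957, plus strand) was at 8.06 ± 0.614 CPM (SD, n = 3), while Wnt9b (103727364 to 103749821, minus strand), 24328 nt away, had 2 counts in all. Also on chromosome 11, Wnt9a was at 0.745 ± 0.0863 CPM and Wnt3a, 16175 nt away on the other strand, had no counts. On chromosome 1, Wnt6 (4.60 ± 2.05 CPM) and Wnt10a (1.96 ± 0.885 CPM), 6193 nt apart on the same strand, were both detected, and both were lowest in replicate 3. On chromosome 15, Wnt1 and Wnt10b, 11706 nt apart, were both near the minimum, at 1.29 ± 0.0673 and 0.731 ± 0.121 CPM.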
